A study of Mus musculus with 56 samples.

Results

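Complement genes were examined in visceral adipose tissue (VAT) of mice whose feeding was restricted to the day or to the night. The 9 genes are Cfd, which encodes adipsin (complement factor D), with C3, Cfb, C4b, C2, C1ra, C1s1, C1qa and C1qb, taken by symbol from 25939 genes with a deposited value. Cfd was included because its level was lower under daytime feeding at every time point, so its difference between regimens is given below as a description with no test, and the other 8 genes were tested. Tissue came from female C57BL/6J mice aged 9 weeks that had been kept in a light-dark cycle with lights on from ZT0 to ZT12 (ZT, zeitgeber time, hours after lights on). The daytime-restricted feeding (DRF) mice and the nighttime-restricted feeding (NRF, control) mice had spent 7 days on normal chow offered in the light or in the dark phase. Each regimen was sampled every 4 h from ZT0 to ZT24, with 4 mice per time point, which gave 28 libraries per regimen and 56 in all.

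Complement is a cascade of plasma and tissue proteins that marks cells and particles for removal. The classical pathway starts when C1q binds a target and activates its proteases C1r and C1s, which cut C4 and C2 into the C3-cleaving enzyme. The alternative pathway builds its own C3-cleaving enzyme from a fragment of C3 and factor B, and factor D is the serine protease that cuts factor B in this step. Adipsin is made largely by adipocytes, whereas C1q chains are made by macrophages.

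Positions below are those of GRCm38 in the GENCODE M21 annotation. Cfd lies on chromosome 10 (79890853 to 79892655, plus strand) and C3 on chromosome 17 (57203970 to 57228136, minus strand). C4b (34728380 to 34743882), Cfb (34856374 to 34862518) and C2 (34862604 to 34898265) lie close together on the minus strand of chromosome 17. C1ra (124512405 to 124523443, plus strand) and C1s1 (124530345 to 124542359, minus strand) are neighbours on chromosome 6, and C1qb (136880129 to 136886187) and C1qa (136895917 to 136898803) are neighbours on the minus strand of chromosome 4. Values are sums over all exons of a gene. A readthrough transcript annotated as Gm20547 shares 2246 of the 2825 exon bases of Cfb and 1656 of the 3872 exon bases of C2, and the antisense gene Gm16567 shares 576 of the 3129 exon bases of C1s1. Neither of these genes was analysed here, and the library kit does not mark strand, so how reads in the shared bases were assigned limits the values of Cfb most.

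The 250 bases before the gene start are shown for Cfd, C3 and C1s1 because these genes were lower under DRF, and because a RefSeq entry on GRCm38.p6 gave a window free of annotated exons. The windows are chr10:79890603-79890852 on the plus strand for Cfd, chr17:57228137-57228386 on the minus strand for C3 and chr6:124542360-124542609 on the minus strand for C1s1, each written 5′ to 3′ up to the last base before the gene. Capitals mark TTGCNNAA on either strand, a form of the element bound by C/EBP factors, chosen after the sequences had been seen.
Cfd: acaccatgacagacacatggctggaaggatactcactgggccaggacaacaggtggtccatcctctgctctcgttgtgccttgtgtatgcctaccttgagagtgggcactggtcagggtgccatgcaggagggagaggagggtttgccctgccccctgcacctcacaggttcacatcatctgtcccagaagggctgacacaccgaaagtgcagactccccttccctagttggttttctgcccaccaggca
C3: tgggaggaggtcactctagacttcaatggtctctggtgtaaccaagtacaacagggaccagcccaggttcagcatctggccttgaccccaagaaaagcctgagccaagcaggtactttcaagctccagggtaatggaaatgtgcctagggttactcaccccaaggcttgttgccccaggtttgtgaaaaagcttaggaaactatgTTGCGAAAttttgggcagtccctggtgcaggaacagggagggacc
C1s1: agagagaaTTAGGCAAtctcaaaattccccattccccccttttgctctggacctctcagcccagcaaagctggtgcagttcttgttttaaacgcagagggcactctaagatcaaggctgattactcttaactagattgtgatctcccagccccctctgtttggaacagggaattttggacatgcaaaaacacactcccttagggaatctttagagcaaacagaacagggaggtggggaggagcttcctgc
The C3 match starts 45 bases before the gene (position -45) and the C1s1 match at position -242, and Cfd has none. A second RefSeq start of C1s1 gives the window chr6:124542322-124542571, which overlaps a C1s1 exon and holds no match, so the C1s1 match depends on the start used. Of 32851 RefSeq windows of this length, 9.56% hold TTGCNNAA. None of the 3 windows holds the TATA box TATAAA on either strand, which 12.4% of all windows hold. The CCAAT box, with the letters CCAAT, is likewise in none of them and in 33.8% of all windows. The same holds for the E-box of clock factors, CACGTG, which is in 6.02% of all windows, and for the STAT element TTCNNNGAA, which is in 7.02%.

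Recovered reads ranged from 29.3 to 39.8 M per library, with a median of 34.2 M under NRF and 33.0 M under DRF. Whether a count stands for a read or for a fragment is not given in the sources used here, and the word read covers both. Adipocyte markers were present in every library, with a summed level of 18645 to 30735 CPM (reads scaled per M reads of the effective library size) under NRF and 10433 to 35424 CPM under DRF. The medians were 23794 CPM under NRF and 27449 CPM under DRF. The low end under DRF came from DRF ZT8 replicate 1, and DRF ZT0 replicate 4 held 16007 CPM. A pair of DRF libraries stood apart in uterine markers. The 7 markers of uterine epithelium summed to 1184 CPM in DRF ZT0 replicate 4 and to 520 CPM in DRF ZT8 replicate 1, against at most 72.7 CPM in the other DRF libraries and 45.2 CPM under NRF. Liver markers summed to 1642 CPM in NRF ZT24 replicate 4, and results are also given without these 3 libraries where that changes them. Skeletal muscle markers varied widely in both regimens, from 10.6 to 486 CPM under NRF and from 5.91 to 377 CPM under DRF, with the highest sums in NRF ZT8 replicate 4 and DRF ZT16 replicate 2, and their part in the results was not tested.

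Per length of transcript the 9 genes differed widely in level. The median level of Cfd was 13445 CPM per kilobase of exon under NRF and 5088 under DRF. C3, the protein on which all pathways converge, followed with 597 and 414 CPM per kilobase. C1qa (147 and 130), C1qb (116 and 105), C1s1 (84.9 and 66.9), C4b (65.9 and 39.2), C1ra (42.6 and 30.1) and C2 (11.8 and 6.94) came next in CPM per kilobase under NRF and DRF. Cfb had the lowest level, with medians of 0.834 and 0.781 CPM per kilobase. Levels per kilobase divide by all exon bases, including those that Cfb and C2 share with Gm20547 and C1s1 with Gm16567. The levels of these genes, most of all Cfb, may therefore be understated. Under NRF the ranges of C1qa and C1qb, of C1qb and C1s1, of C1s1 and C4b, and of C4b and C1ra overlapped, whereas Cfd, C3, C2 and Cfb each had ranges apart from their neighbours. Under DRF the C3 range reached up to 1928 CPM per kilobase through DRF ZT0 replicate 4, still below the lowest Cfd value of 2659.

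**Figure D1:**
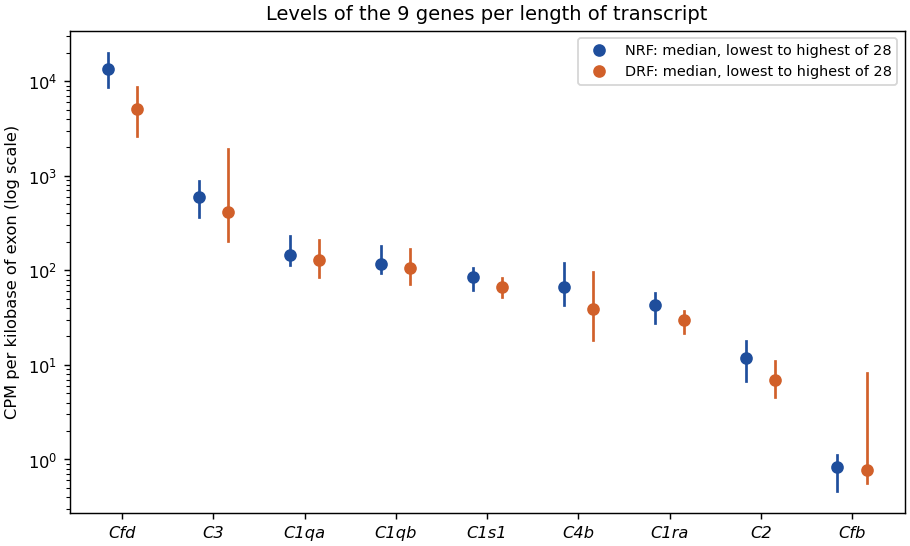
Level of the 9 genes in CPM per kilobase of exon on a log axis, with the median (point) and the lowest to highest library (line) of 28 NRF and 28 DRF libraries. Cfd sits above all others in both regimens, from a median of 13445 under NRF, and Cfb lies lowest with a median of 0.834 under NRF. The Cfb level may be understated because most of its exon bases are shared with Gm20547.

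Cfd transcript ranged under NRF from 7987 to 18266 CPM with a median of 12396 CPM, and under DRF from 2451 to 7997 CPM with a median of 4691 CPM. The regimens overlapped only at their edges: 27 of 28 DRF libraries lay below the lowest NRF library, and 27 of 28 NRF libraries lay above the highest DRF library. At ZT0 the 4 NRF libraries held 12200, 9692, 13140 and 12265 CPM and the 4 DRF libraries 3333, 4781, 7444 and 3023 CPM. At ZT12 the NRF values were 16860, 11706, 13251 and 12713 CPM, and the DRF values were 4091, 3817, 3818 and 6997 CPM. All DRF libraries were below all NRF libraries at 6 of 7 time points, which was so at 6 or more time points for 0.0231% of all genes. Cfd was chosen from these same values, so nothing is read from that share for Cfd. ZT24 was the exception, where DRF replicate 2 at 7997 CPM passed NRF replicate 4 at 7987 CPM, the library with the raised liver markers.

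The difference in the mean level of Cfd was -1.37 ± 0.14 on the log2(CPM + 1) scale (DRF minus NRF, SE, n = 28 per regimen), a level 2.58-fold higher under NRF. By time point the log2 difference was smallest at ZT24 (-0.93 ± 0.39) and ZT20 (-1.09 ± 0.39) and largest at ZT12 (-1.58 ± 0.39) and ZT8 (-1.56 ± 0.39). Without the pair of DRF libraries the overall difference was -1.30 ± 0.12, the ZT8 difference was -1.25 ± 0.36, and the largest were those at ZT12 (-1.58 ± 0.33) and ZT16 (-1.54 ± 0.33). Cfd took up 0.907% to 2.07% of all recovered reads under NRF and 0.346% to 0.884% under DRF. Of all genes, 3.10% had a lower mean under DRF at all 7 time points, which is the pattern by which Cfd had been included. In bulk tissue, fewer cells of a type and less RNA per cell cannot be told apart. Of 8 adipocyte markers, Adipoq was lower under DRF (log2 difference -0.31 ± 0.085, adjusted p = 0.00567, limma). Lep was higher (0.60 ± 0.16, adjusted p = 0.00508, limma) and the other 6 did not pass. Of all genes with a mean of at least 1 CPM, 15.7% were called lower and 17.8% higher in the same test. The part of adipocyte number in the Cfd difference was not tested.

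**Figure D2:**
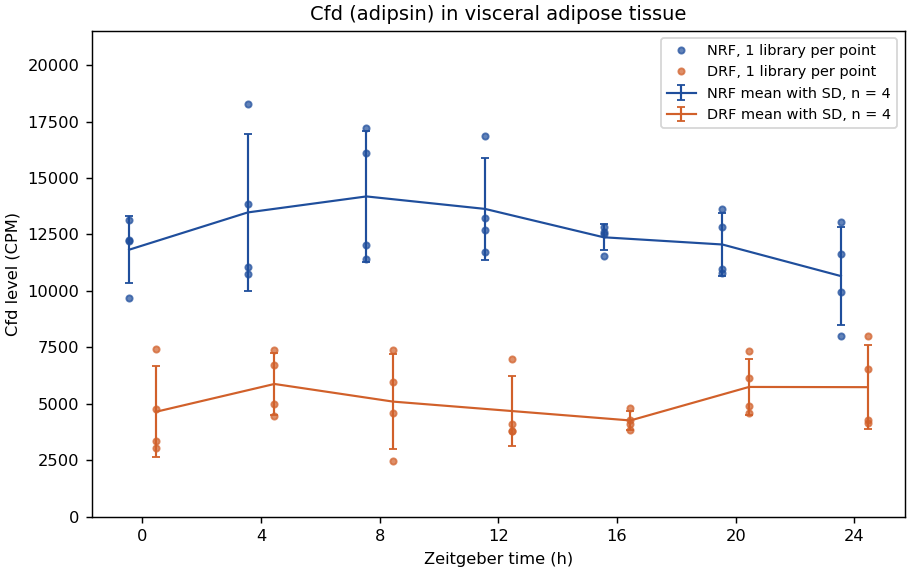
Cfd level in CPM (y axis, from 0) against zeitgeber time in hours (x axis), with 1 point per library and the mean with SD of 4 libraries joined by a line for each regimen. The DRF points reach 7997 CPM at most and the NRF points fall no lower than 7987 CPM, so the regimens touch only at ZT24.

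In the alternative pathway C3 was lower under DRF, whereas Cfb did not pass the test. C3 ranged from 1898 to 4528 CPM under NRF (median 3069 CPM) and from 1044 to 9917 CPM under DRF (median 2127 CPM). Of the DRF libraries, 27 of 28 lay below the NRF median, and the exception was DRF ZT0 replicate 4 with 9917 CPM beside 1520, 1842 and 2090 CPM in its group. C3 fell by 0.55 ± 0.12 (log2, SE) under DRF (adjusted p = 0.000273, limma with Benjamini-Hochberg adjustment over all genes). Without the pair of DRF libraries the difference was -0.57 ± 0.074 (adjusted p = 3.64e-08). Across all genes, 10.3% were called lower and 11.4% higher under DRF, and the median log2 difference over all genes was -0.00037.

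The level of Cfb, the zymogen that factor D cuts, ranged from 1.31 to 3.11 CPM under NRF (median 2.36 CPM) and from 1.59 to 23.1 CPM under DRF (median 2.21 CPM). The value of 23.1 CPM came from DRF ZT0 replicate 4, in which the remaining members of the group held 2.21, 2.40 and 1.84 CPM, and without the pair the highest DRF library held 3.25 CPM. The log2 difference was 0.055 ± 0.12 with an interval of -0.18 to 0.29 (95% interval, normal, adjusted p = 0.811, limma), and -0.014 ± 0.058 without the pair (adjusted p = 0.892). In DRF ZT0 replicate 4 high C3, high Cfb and high uterine epithelial markers occurred together. DRF ZT8 replicate 1, the other library with raised markers, had the lowest C3 of all libraries (1044 CPM) and a Cfb level of 1.74 CPM, inside the range of the other DRF libraries. In that library Cfd (2451 CPM), C4b (103 CPM), C2 (17.7 CPM), C1ra (64.9 CPM), C1qa (89.2 CPM) and C1qb (78.5 CPM) were also the lowest of all libraries. Its adipocyte marker sum (10433 CPM) was the lowest too. The part of the uterine or adipocyte markers in the values of these 2 libraries was not tested.

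The substrates of the C1 proteases were lower under DRF. C4b encodes complement C4, whose cleaved form binds covalently to targets. It ranged from 244 to 680 CPM under NRF (median 375 CPM) and from 103 to 544 CPM under DRF (median 223 CPM), and 20 of 28 DRF libraries lay below the lowest NRF library. C4b fell by 0.91 ± 0.12 on the log2 scale (adjusted p = 6.33e-08, limma), which left 0.531 times the NRF level. C4b varied widely between mice of a group, as at DRF ZT8 with 103, 544, 223 and 225 CPM. C4a, its near copy, was listed at a mean of 0.487 CPM. How reads that fit both copies were counted is not given, so they could have been left out or divided between them.

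C2 supplies the protease subunit of the classical C3-cleaving enzyme and is related to factor B. It ranged from 26.1 to 69.4 CPM under NRF (median 45.5 CPM) and from 17.7 to 42.3 CPM under DRF (median 26.9 CPM). Every DRF library was below the NRF median, and 16 of 28 NRF libraries lay above the highest DRF library. C2 fell by 0.68 ± 0.076 (adjusted p = 2.02e-09, limma).

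The C1 proteases had smaller estimated differences than C4b and C2, though the gap between these genes was not tested. Their spread was the smallest of the 9 genes. The coefficient of variation was 14.2% (C1ra) and 13.5% (C1s1) over the NRF libraries and 12.9% and 13.4% over the DRF libraries. C1ra encodes C1r, which activates itself when C1q binds a target. It ranged from 83.0 to 173 CPM under NRF (median 127 CPM) and from 64.9 to 110 CPM under DRF (median 89.8 CPM). All DRF libraries were below all NRF libraries at 6 of 7 time points, and at ZT24 they overlapped because NRF replicate 4 held 83.0 CPM beside 122, 143 and 128 CPM. Separation at 6 or more time points was found for 6 of 25936 genes (0.0231%), Cfd among them. The other 4, named after their values were seen, were Cd63, its copy Cd63-ps, Itih4 and Ifi27l2a. C1ra fell by 0.49 ± 0.051 (adjusted p = 3.17e-10, limma).

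C1s1 encodes C1s, which C1r cuts and which in turn cuts C4 and C2. It ranged from 195 to 333 CPM under NRF (median 266 CPM) and from 165 to 259 CPM under DRF (median 209 CPM). All 28 DRF libraries were below the NRF median, and the regimens separated fully at 2 of 7 time points, and 15.8% of all genes did so at 2 or more. C1s1 fell by 0.37 ± 0.053 (adjusted p = 6.03e-07, limma). Its near copy C1s2 (mean 0.845 CPM) and the C1ra copy C1rb (mean 0.502 CPM) were both below 1 CPM. Markers of adipose progenitors moved in the same direction as C1ra, C1s1, C4b, C2 and C3: 4 of 7 (Pdgfra, Dpt, Dpp4 and Cd34) were called lower and none higher, beside 15.7% and 17.8% of genes with a mean of at least 1 CPM, with summed levels of 1108 to 1909 CPM under NRF and 1037 to 1675 CPM under DRF. Of 6 mesothelial markers, 3 (Upk3b, Lrrn4 and Wt1) were called lower and none higher, and their sums were 247 to 671 CPM under NRF and 206 to 614 CPM under DRF. Blood markers moved the other way: all 4 (Hbb-bs, Hba-a1, Hba-a2 and Alas2) were called higher under DRF, with sums of 166 to 706 CPM under NRF and 198 to 816 CPM under DRF. Of 5 endothelial and 6 lymph node markers none was called in either direction, with median log2 differences of 0.060 and -0.061. The part of these cells in the differences was not tested.

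C1qa and C1qb, which encode chains of C1q, the recognition part of the classical pathway, showed small differences that did not pass the threshold. C1qa ranged from 118 to 243 CPM under NRF (median 153 CPM) and from 89.2 to 218 CPM under DRF (median 135 CPM). The log2 difference was -0.16 ± 0.069 (95% interval -0.29 to -0.023, adjusted p = 0.096). C1qb ranged from 102 to 199 CPM under NRF (median 126 CPM) and from 78.5 to 182 CPM under DRF (median 114 CPM), a log2 difference of -0.17 ± 0.067 (95% interval -0.30 to -0.035, adjusted p = 0.0671). Over all 28 libraries their groups overlapped, with 7 of 28 DRF libraries below the lowest NRF library for each chain. C1qb passed the threshold with the replicate number as a block (adjusted p = 0.0491) and with genes under a mean of 1 CPM left out (adjusted p = 0.0434), and over 13 alternatives its adjusted p ran from 0.0434 to 0.268. Of 10 macrophage markers, 7 (Adgre1, Csf1r, Mrc1, Cd163, Cd14, Fcgr1 and Cd209f) were called lower under DRF and none higher. Among all genes with a mean of at least 1 CPM, 15.7% were called lower and 17.8% higher. The macrophage markers summed to 819 to 1992 CPM under NRF and 674 to 1313 CPM under DRF. Their part in the C1q values was not tested.

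In all, 5 of the 8 tested genes (C3, C4b, C2, C1ra and C1s1) were called lower and none higher, beside 10.3% and 11.4% of all genes and 15.7% and 17.8% of those with a mean of at least 1 CPM, and 7 of 8 estimates were below 0, with a median log2 difference of -0.43 over the 8 genes. The 5 calls held in 14 of 14 alternative fits for each gene.

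**Figure D3:**
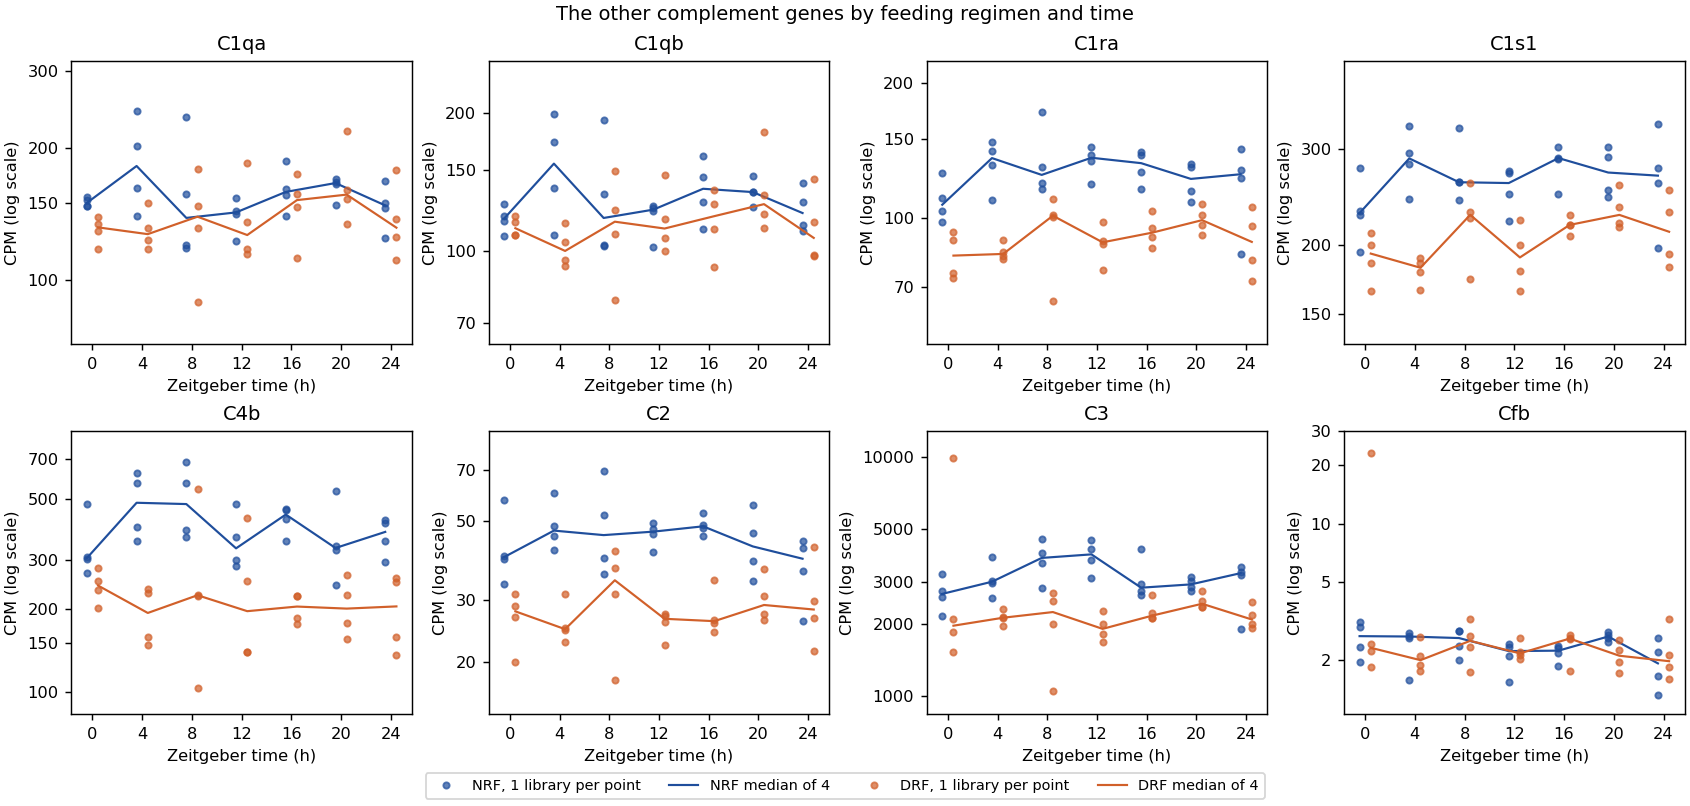
Level of the 8 genes other than Cfd in CPM (log y axes, each with its own range) against zeitgeber time in hours, with 1 point per library and a line through the medians of 4 libraries for each regimen. The DRF points lie below the NRF points for C1ra at 6 of 7 time points, the C1qa and C1qb points overlap at every time point except C1qa at ZT0, and DRF ZT0 replicate 4 stands out in C3 (9917 CPM) and Cfb (23.1 CPM).

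Single time points were compared for the 8 genes to see when the regimens differed. Of 56 comparisons 20 passed the threshold in limma, all with the lower value under DRF, and 9 to 13 passed when a replicate number was left out. C1ra passed at 6 time points, C2 at 5, C4b at 4, C3 and C1s1 at 2 each, C1qb at 1, and C1qa and Cfb at 0. ZT4, inside the feeding window of DRF mice and outside that of NRF mice, had the most calls, with C4b (-1.33 ± 0.32, adjusted p = 0.00197), C2 (-0.89 ± 0.20, adjusted p = 0.00105), C1ra (-0.64 ± 0.14, adjusted p = 0.00053), C1s1 (-0.67 ± 0.13, adjusted p = 0.00014) and C1qb (-0.56 ± 0.17, adjusted p = 0.0173). At this time 9.03% of all genes were called lower. C1qb at ZT4 held 108, 137, 173 and 199 CPM under NRF and 95.8, 105, 92.8 and 115 CPM under DRF, so the groups overlapped.

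C3 differed most at ZT12 (-0.98 ± 0.32, adjusted p = 0.0258), with 4477, 4112, 3104 and 3717 CPM under NRF and 1687, 2000, 1813 and 2265 CPM under DRF. At ZT8 the C3 difference was -0.93 ± 0.32 (adjusted p = 0.0364), and at those time points 7.38% and 7.46% of all genes were called lower. At ZT0 the C3 difference was 0.055 ± 0.32 with DRF replicate 4 and -0.56 ± 0.20 without the pair (adjusted p = 0.949 and 0.0672). At ZT20 none of the 8 genes was called (limma, 3 with an unadjusted p under 0.05), while 6.41% of all genes were called lower. C2 at ZT20 had a log2 difference of -0.50 ± 0.20 (adjusted p = 0.0942), and without the pair it passed (-0.50 ± 0.18, adjusted p = 0.0485). ZT0, ZT16 and ZT24 had 2, 3 and 2 calls, against 5.06%, 4.97% and 5.24% of all genes called lower. Without the pair the calls of C4b (adjusted p = 0.123), C2 (0.178) and C1ra (0.0578) at ZT8 were lost, with log2 differences of -0.68, -0.38 and -0.35 in place of -1.07, -0.63 and -0.52. The call of C1ra at ZT0 was lost at a difference of similar size (-0.36 ± 0.13, adjusted p = 0.0718, from -0.40 ± 0.14). The calls of C3 at ZT4 (adjusted p = 0.035), C1qa at ZT4 (0.031), C1s1 at ZT16 (0.0308) and C2 at ZT20 (0.0485) were gained, so that 20 calls were again made. Without NRF ZT24 replicate 4 the call of C4b at ZT24 was lost, although its difference was of the same size (-0.94 ± 0.35, adjusted p = 0.0854, from -0.92 ± 0.32). The calls of C1s1 at ZT24 (adjusted p = 0.0256) and ZT16 (adjusted p = 0.0367) were gained in that fit.

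No 24-h rhythm was called in the 9 genes. The JTK_CYCLE and Lomb-Scargle tests, combined, called 0 of 9 in each regimen, and 0 of 9 had an unadjusted p under 0.05 in either regimen. In the same test 24.5% of all genes passed under NRF (30.4% at an unadjusted p under 0.05) and 12.9% under DRF (20.2%). The limma F test also called 0 of 9 in each regimen, with 1 gene under NRF and 0 under DRF at an unadjusted p under 0.05, where 33.7% (NRF) and 26.7% (DRF) of all genes were called and 41.8% and 36.8% had an unadjusted p under 0.05. In the combined test the smallest adjusted p was that of C3 under NRF (0.411). Mean C3 under NRF went from 2684 ± 438 CPM (SD, n = 4) at ZT0 to 3853 ± 588 CPM at ZT12, and mean Cfd under NRF from 10657 ± 2177 CPM at ZT24 to 14185 ± 2889 CPM at ZT8.

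Under NRF the fitted 24-h amplitudes ran from 0.026 (Cfb) to 0.23 (C3) on the log2 scale, and under DRF from 0.026 (C2) to 0.20 (C3). Without the pair the C3 amplitude under DRF was 0.060 ± 0.069, and the DRF amplitudes ran from 0.035 (C2) to 0.18 (Cfd). The C3 amplitude under NRF was 0.23 ± 0.10 in all libraries and 0.23 ± 0.061 without the pair (SE). The fit shares its spread over both regimens, so the DRF pair widened the NRF error. The limma F test within NRF is not given without the pair. The Cfd amplitude was 0.16 ± 0.095 under NRF and 0.13 ± 0.093 under DRF (SE), the C4b amplitude 0.21 ± 0.13 and 0.039 ± 0.12 (0.15 ± 0.13 under DRF without the pair), and the C1ra amplitude 0.12 ± 0.050 and 0.080 ± 0.054. Since no rhythm was called, phases were not compared. The rhythm difference between regimens was called for 0 of 8 genes in limma, with 1 gene (C3) at an unadjusted p under 0.05, whereas 36.0% of all genes were called. The adjusted p of C3 was 0.0808, and with genes under a mean of 1 CPM left out it was 0.0386 (0.0386 to 0.246 over 13 alternatives).

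Across the 56 libraries the 9 genes formed patterns of likeness, given here as descriptions on log2(CPM + 1) of values that share library and depth. C1qa and C1qb tracked each other most closely (Pearson r = 0.96, and 0.96 within regimens). C1ra went with C1s1 (r = 0.92, 0.85 within regimens) and with C2 (r = 0.92, 0.80 within regimens). Cfd was most like C1ra (r = 0.84, 0.54 within regimens). Without the pair of DRF libraries it was most like C3 (r = 0.83, against 0.56 in all libraries), just above C1ra (r = 0.82). C3 and Cfb had r = 0.56, which dropped to 0.16 without the pair.

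Among 14301 genes with a mean of at least 1 CPM, and leaving out the 9 genes themselves, those most like Cfd were Gpx3, a secreted glutathione peroxidase (r = 0.93, 0.77 within regimens), Ifi27l2a, an interferon-inducible gene (0.90, 0.63), H2-K1, an MHC class I gene (0.85, 0.56), Mgst1, a microsomal glutathione transferase (0.84, 0.81), and Clec3b, which encodes tetranectin (0.83, 0.65). Among the genes most like C3 were Eps8 (r = 0.78, and 0.68 without the pair) and H2-T23 (r = 0.78). Outside the 9 genes C1qa was most like C1qc, the remaining C1q chain gene (r = 0.94), Fcgr3, an Fc receptor (0.83), and Ccl9, a chemokine (0.81).

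The rest of the complement system was read from a list of 41 genes, of which 36 were in the deposited table and 26 had a mean of at least 1 CPM. Of the 36 genes, 11 were called lower and 1 higher under DRF, beside 10.3% and 11.4% of all genes, and the median log2 difference of the list was -0.052. Of the 26 genes at 1 CPM or more, 10 were called lower and 1 higher, beside 15.7% and 17.8% of all 14301 genes at that level. Without the pair of DRF libraries 12 of the 36 were called lower and 4 higher (Cd93, C6, Cd59a and the lectin pathway protease gene Masp1, at 0.37 with an adjusted p of 0.022), while calls over all genes rose to 14.3% lower and 14.6% higher. Without NRF ZT24 replicate 4 the listed genes called numbered 14 in place of 12, with C1s2 (-0.18, adjusted p = 0.0344) and Masp1 (0.34, adjusted p = 0.0424) gained, and 22.3% of all genes were called in place of 21.7%. Masp2, the other lectin pathway protease gene, was called lower (-0.28 ± 0.052, adjusted p = 7.6e-05) at a mean of 0.508 CPM, and in 12 of 12 alternatives that tested it. C1qc, the remaining C1q chain, lay at the threshold (-0.18 ± 0.067, adjusted p = 0.0498) and passed in 5 of 13 alternatives (adjusted p of 0.031 to 0.214, and 0.0817 without the pair). Among lectin pathway genes the collectins Colec11 (-0.39 ± 0.073, adjusted p = 6.94e-05) and Colec12 (-0.33 ± 0.048, adjusted p = 1.09e-06) were lower. Cfp, which encodes properdin, the stabiliser of the alternative C3-cleaving enzyme, was lower by a log2 difference of -0.28 ± 0.084 (adjusted p = 0.0102), and it passed in 12 of 13 alternatives, the exception being the fit without replicate 1 (-0.17, adjusted p = 0.23). Of the terminal components only C7 was called lower (-0.26 ± 0.081, adjusted p = 0.015), while C6 (0.25 ± 0.096, adjusted p = 0.0567) was not, though without the pair it passed as higher (0.30, adjusted p = 0.0081). It passed in 3 of 13 alternatives.

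Of 10 regulators with a deposited value, 3 were called lower and none higher, beside 10.3% and 11.4% of all genes. Serping1, which encodes the inhibitor of C1r and C1s, had medians of 323 CPM under NRF and 254 CPM under DRF (-0.29 ± 0.059, adjusted p = 0.000219). Clu, which encodes clusterin (-0.45 ± 0.065, adjusted p = 5.98e-07), and Vtn, which encodes vitronectin (-0.48 ± 0.079, adjusted p = 8.45e-06), both inhibitors of the terminal complex, were lower as well. Cd55, Cd46, Cr1l, Cd59a and Cd59b had log2 differences from -0.019 to 0.098 and none was called (limma), but without the pair Cd59a was called higher (0.16, adjusted p = 0.0143). Cfi, a soluble regulator that was not called, varied widely (-0.069 ± 0.29, adjusted p = 0.906), and without the pair it was called lower (-0.39, adjusted p = 0.0132).

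Among receptors, C3ar1 (-0.16 ± 0.060, adjusted p = 0.0436) and C5ar2 (-0.33 ± 0.061, adjusted p = 5.72e-05), which bind the released fragments of C3 and C5, were lower. Cd93, an endothelial and myeloid surface protein first described as a C1q receptor, was called higher (0.20 ± 0.072, adjusted p = 0.0411). In the same fit no other listed gene was called higher, and with genes under a mean of 1 CPM left out Masp1 (adjusted p = 0.0332) and C6 (adjusted p = 0.0357) were called higher too, and the C5a receptor gene C5ar1 was called lower (-0.17, adjusted p = 0.0488, from 0.0759). C3ar1 passed in 7 of 13 alternatives and C7 and Cd93 in 10 of 13 each. C8g was the only listed gene rhythmic in both regimens (adjusted p = 0.00102 under NRF and 0.000593 under DRF), and its rhythm differed between them (adjusted p = 8.97e-08, limma). Its mean level did not pass the test (0.016 ± 0.062, adjusted p = 0.899). A rhythm was called for 7 of the 36 listed genes in NRF mice and for 3 in DRF mice, and the rhythm difference was called for 10, beside 24.5%, 12.9% and 36.0% of all genes.

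**Figure D4:**
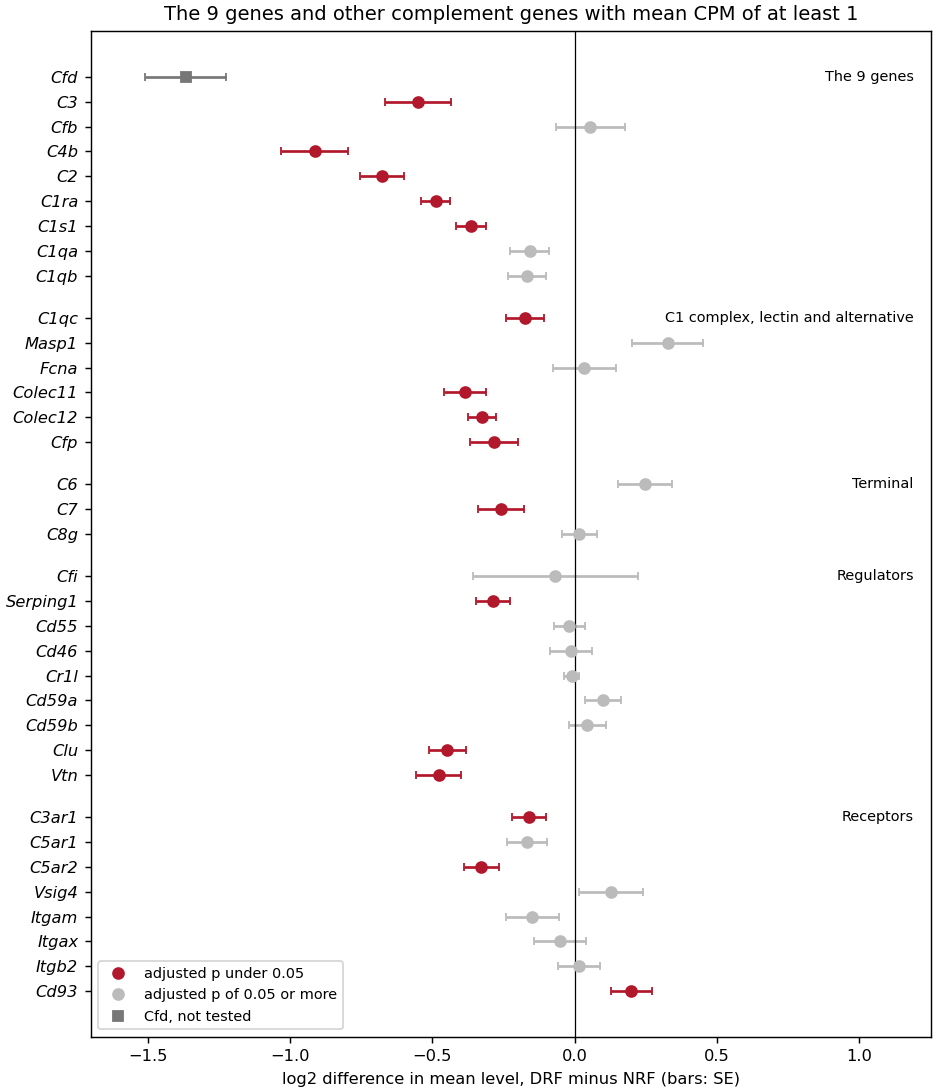
Log2 difference in mean level (DRF minus NRF, x axis, bars are SE) of the 9 genes and of 26 other complement genes with a mean of at least 1 CPM, grouped by role. Cfd, drawn as an untested square, lies farthest left at -1.37, 5 of the 8 tested genes and 10 others are called lower, and Cd93 at 0.20 is called higher.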

How the data were processed

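Poly-A RNA of VAT was sequenced from 56 mice, 4 in each of 14 groups, and regimen, time and replicate number came from the sample labels. Equal replicate numbers name different mice. The submitters' processing notes name HISAT2 2.0.5, featureCounts 1.5.0-p3 and mm10. The values deposited by the authors are named TPM but were treated as a score, since each is log2(CPM + 1) divided by exon length and rescaled. Whole reads were recovered from the steps between low values. Values up to 10000 reads were whole within 0.02 in 100%, which is no independent check. Exon lengths were kept or refitted by that same rule, which 24712 genes met with the GENCODE length. Abundant genes such as Cfd and C3 were kept by a looser rule of the same kind. For Cfd 73.2% and for C3 98.2% of values were within 0.1 of a whole number, where chance gives 20%. Exon lengths were those of GENCODE M21 except for 902 genes with a length taken from the values, and Fasn, Scd1 and mt-Co1 were left out. CPM uses the recovered effective library size (31.8 to 47.3 M).

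Mean level and rhythm difference were tested in limma 3.58.1 (R 4.3.3) on log2(CPM + 1) with trend, each regimen having its own mean and 24-h cosinor terms, over 25936 genes with no filter, at a Benjamini-Hochberg adjusted p of 0.05. The pseudocount of 1 understates the change of low genes. Single time points used 14 group means. Rhythms within a regimen were tested after meta2d (JTK_CYCLE with Lomb-Scargle) in Python 3.11.15 with scipy 1.17.1. Programs were tested on simulated data. Alternatives changed the pseudocount, filter, scaling, model or replicate block, or left out libraries. Named were the 9 genes, listed complement genes called at a mean of at least 1 CPM or rhythmic in both regimens, and the 5 genes most like Cfd and the 3 most like C3 and C1qa. One gene that these rules name is not reported here and is left out of the counts of the complement list. Genes given for contrast were chosen after their values were seen. The 9 genes, lists and tests were chosen with earlier results of these data known.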

Additional observations from a re-analysis of the deposited data

Results flagged for a closer look

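Each of the 9 genes was examined in 14 groups of 4 libraries for a library far from the other 3, by Dixon's test on log2(CPM + 1). Chance flags about 1 in 20 groups, and 7 of 126 were found. DRF ZT0 replicate 4 was high in C3 (9917 CPM, the next library at 2090 CPM) and in Cfb (23.1 CPM, the next at 2.40 CPM), and it is the library with the highest uterine epithelial marker sum. DRF ZT12 replicate 4 was high in Cfd (6997 CPM, the next at 4091 CPM). NRF ZT24 replicate 4, the library with raised liver markers, was low in C3 (1898 CPM, the next at 3223 CPM). Low values were found for Cfb in NRF ZT4 replicate 2 (1.57 CPM, the next at 2.60 CPM) and DRF ZT16 replicate 3 (1.76 CPM, the next at 2.55 CPM), and for C1qb in NRF ZT12 replicate 2 (102 CPM, the next at 122 CPM).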

How the results depend on the processing

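The 5 calls of lower mean level (C3, C4b, C2, C1ra and C1s1) kept direction and significance in 14 of 14 alternative fits. Over the 13 of them on a log2 CPM scale, which leaves out the fit on deposited values, the differences were -0.69 to -0.44 for C3, -1.07 to -0.80 for C4b, -0.75 to -0.61 for C2, -0.53 to -0.45 for C1ra and -0.39 to -0.34 for C1s1. Cfb, not called in any, reversed to -0.014 without DRF ZT8 replicate 1 and DRF ZT0 replicate 4 and to -0.063 without replicate 4 (-0.063 to 0.14 when a replicate number was left out). The count of rhythm differences among the 8 genes went from 0 to 1 (C3) with genes under a mean of 1 CPM left out. Calls at single time points went from 20 to between 9 and 13 when a replicate number was left out, which leaves fewer samples, and to 21 without NRF ZT24 replicate 4, which was added after seeing the data. Genes rhythmic over the whole table went from 6364 to between 3625 and 4994 (NRF) and from 3355 to between 1401 and 2135 (DRF) when a replicate number was left out, and to 4429 under DRF without the pair of libraries, and the limma F test called 8748 (NRF) and 6930 (DRF), or 8978 and 7183 with a replicate block; the cause of the last difference was not tested. C1qb passed the mean level test with the 1 CPM minimum (adjusted p = 0.0434) and with the replicate block (adjusted p = 0.0491). Under that block 22 time-point calls were made in place of 20, and no other mean level call of the 8 genes changed. Same-numbered libraries of the same time point correlated at a median of 0.023 in their deviations from group means (range -0.30 to 0.34 over 28 pairs). The median for other numbers was -0.021. The medians lay close together, which cannot show that same-numbered libraries shared no batch. Depth limits Cfb most, which had 56 to 945 reads per library.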
